A study of Mus musculus with 5 samples.

Results

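The regions described here are the PABPC1 peaks that lie in introns. A peak was counted when its midpoint fell, on its own strand, in an intron and in no exon of the basic transcripts of GENCODE mouse release M21 on build mm10. By this rule 11560 of 90337 peaks were intronic, 12.8% (95% exact binomial interval 12.6 to 13.0, which covers counting error only). The peaks come from CLIP-seq of PABPC1 in 3 samples of MEL, an erythroleukemia cell line of the mouse that resembles erythroid precursors, set beside mRNA-seq of poly(A)-selected RNA from 2 samples of the same line. All 5 samples carry no treatment or genotype in their labels beyond ultraviolet cross-linking at 400 mJ/cm2 and 10 min of RNase in the CLIP-seq samples. The authors pooled the CLIP-seq replicates into single lists of peaks and of deletion sites, and gave each gene 1 RPKM value for both mRNA-seq replicates. Errors between replicates therefore cannot be given for any result, and the study holds no second condition to compare. In the RPKM values, 9 of 10 erythroid marker genes reached an RPKM of 1, against 1 of 6 fibroblast markers and 0 of 6 markers of other blood cells, whose highest value was 0.610.

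PABPC1 is the main cytoplasmic poly(A) binding protein. It coats the poly(A) tail of mature mRNAs and acts in translation and mRNA decay. Introns are normally removed in the nucleus, so intronic sequence reaches the cytoplasm chiefly when an intron is retained, or when the transcript is cleaved and polyadenylated inside the intron. Cleavage sites lie shortly downstream of a poly(A) signal, most often AATAAA in the DNA strand of the same sense. GENCODE's basic set holds mainly complete transcripts of each gene, and its comprehensive set adds partial and non-coding ones, among them transcripts that retain an intron or end inside it.

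Sequence could be read, from the GENCODE M21 transcripts on mm10, for the 1744 intronic peaks whose midpoint lay in an exon of the comprehensive annotation. The sequences below are those of tall peaks of this kind in non-coding transcripts, chosen to show what the peaks cover. Each is given 5' to 3' in the sense of the host gene, in the part of the peak that lies in the intron, with the bases that carry a deletion site in capitals. In the first set the most deleted base lay in or beside AATAAA.
Pcif1: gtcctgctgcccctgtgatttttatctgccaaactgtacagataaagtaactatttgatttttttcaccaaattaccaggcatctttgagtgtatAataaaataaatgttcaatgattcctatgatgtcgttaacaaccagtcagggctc
Pip5k1a: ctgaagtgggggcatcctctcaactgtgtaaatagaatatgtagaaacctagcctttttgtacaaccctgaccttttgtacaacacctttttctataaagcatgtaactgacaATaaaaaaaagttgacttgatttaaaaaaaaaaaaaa
Ndufa7: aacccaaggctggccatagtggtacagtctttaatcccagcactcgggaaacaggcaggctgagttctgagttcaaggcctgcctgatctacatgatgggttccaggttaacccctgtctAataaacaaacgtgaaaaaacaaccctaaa
Abcb4: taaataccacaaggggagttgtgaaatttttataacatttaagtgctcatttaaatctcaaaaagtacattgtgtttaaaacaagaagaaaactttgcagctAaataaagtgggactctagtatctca
These stretches lie at chr2:164883046-164883195 on the plus strand, chr3:95097043-95097192 on the minus strand, chr17:33825697-33825846 on the plus strand and chr5:8899840-8899967 on the plus strand. The heights of the peaks were 338, 279, 211 and 175 tags. The most deleted base was the first base of AATAAA in Pcif1, which encodes the cap-specific adenosine methyltransferase, with a deletion in 20 of 242 tags. The same held in Ndufa7, a gene for a subunit of respiratory complex I, with 10 of 207 tags. In Pip5k1a, which encodes a lipid kinase, AATAAA began 2 nt before the most deleted base, deleted in 25 of 234 tags. In Abcb4, a gene for a phospholipid transporter, it began 1 nt after the most deleted base, deleted in 13 of 169 tags.

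A second set shows tall peaks in retained introns where no AATAAA lay in the stretch shown.
Rpl4: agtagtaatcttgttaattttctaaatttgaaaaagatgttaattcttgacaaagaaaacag
Zfas1: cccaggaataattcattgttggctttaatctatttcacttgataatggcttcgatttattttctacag
Ywhag: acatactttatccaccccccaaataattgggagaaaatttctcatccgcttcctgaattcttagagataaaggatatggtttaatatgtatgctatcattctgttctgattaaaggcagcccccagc
These lie at chr9:64175522-64175583 on the plus strand, chr2:167065366-167065433 on the plus strand and chr5:135930680-135930806 on the minus strand. The Rpl4 and Zfas1 stretches end in the AG of a 3' splice site, and both peaks also cover annotated exons. The Rpl4 peak of 618 tags was 297 nt wide and had 234 bases over exons, and its midpoint lay 49 nt past the end of Snord16a, a box C/D snoRNA gene inside the Rpl4 intron. Rpl4 codes for a large-subunit ribosomal protein. The Zfas1 peak of 284 tags had 113 of its 185 bases over exons, and its midpoint lay 27 nt past the end of Snord12. Zfas1 is a non-coding host gene of snoRNAs. The Ywhag peak, in a gene for a 14-3-3 protein, reached 237 tags and lay 3586 nt from the nearest basic exon, with no base over an exon.

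The last set shows 30 bases, centred on the most deleted base or on the peak's midpoint, from peaks that lie in the 3' UTR of a transcript outside the basic set.
Sik3: aggtgttcttcaagaTtatatgttttccct
Phf10: tttagttattgtttttttatcatatttatg
Hnrnpdl: ctaaacttaacttaaatggttttttacagg
The Sik3 stretch (chr9:46202824-46202853, plus strand) belongs to a peak of 529 tags. The Phf10 stretch (chr17:14947784-14947813, minus strand) belongs to a peak of 349 tags, and the Hnrnpdl stretch (chr5:100035510-100035539, minus strand) to one of 154 tags. Sik3 encodes a protein kinase, Phf10 a subunit of a chromatin remodelling complex and Hnrnpdl an hnRNP protein. The transcripts under the Phf10 and Hnrnpdl peaks include ones annotated as targets of nonsense-mediated decay.

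Intronic peaks were low and narrow. Their median height was 5 tags (quartiles 3 and 9), against 13 tags for the 41534 peaks in 3' UTRs and 8 tags for the 31590 peaks in coding sequence (CDS). They made up 3.56% of the summed height of all peaks, and only 170 reached 74 tags. Of intronic peaks 26.0% had a height of up to 3 tags, compared with 5.02% of 3' UTR peaks and 7.95% of CDS peaks. Median width was 34 nt in introns, 86 nt in 3' UTRs and 64 nt in CDS. The difference in width from 3' UTRs and CDS was present at equal height: among peaks of 9 to 19 tags the medians were 44 nt in introns, 84 nt in 3' UTRs and 74 nt in CDS. In that bin non-coding exons (53 nt) and peaks outside genes (50 nt) were closer to introns. At 74 to 199 tags both were narrower than intronic peaks, at 73.5 nt and 80 nt against 86.5 nt. At 200 tags or more the medians were 99 nt in non-coding exons, 120.5 nt in introns and 149.5 nt outside genes.

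**Figure D1:**
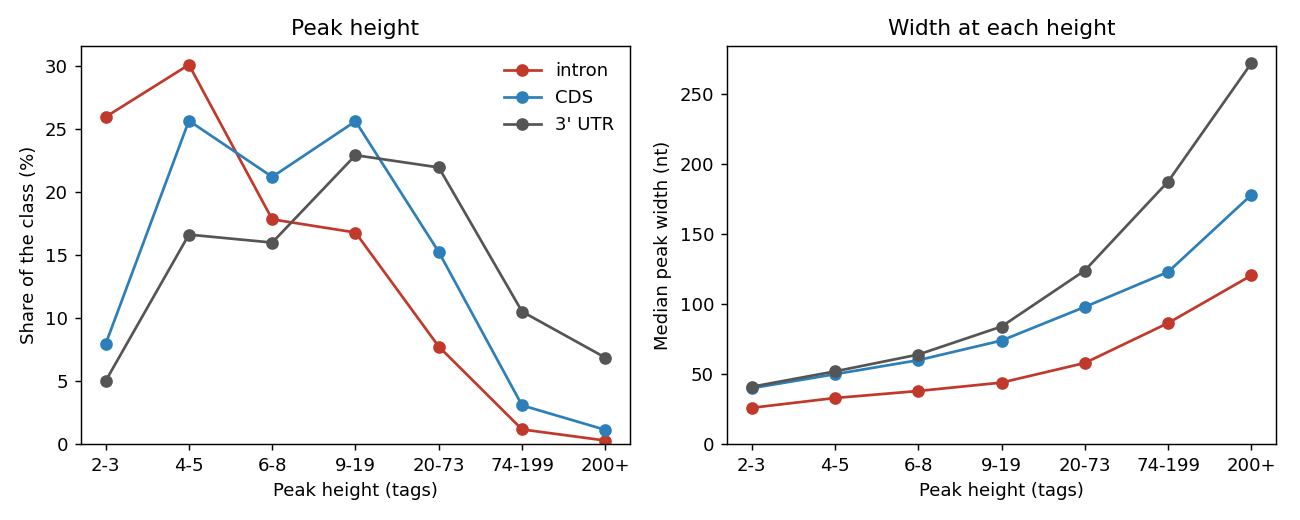
Share of each class of peaks by height (left, %) and median peak width (nt) at each height (right), for peaks in introns, CDS and 3' UTRs. Intronic peaks were concentrated at heights up to 5 tags and had the lowest median width of the 3 classes in each of the height bins.

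Peaks of at most 25 nt made up a larger share in introns than in the other classes. They made up 31.4% of intronic peaks (3626 peaks), 11.6% of the 1099 peaks outside genes, 6.11% of peaks in non-coding exons, 0.742% of 3' UTR peaks and 1.46% of CDS peaks. Among peaks of 2 to 3 tags, where narrow peaks were most frequent, the shares were 47.2% in introns and 41.6% outside genes. This width limit was chosen after the values were seen. Most narrow peaks lay in genes that were not listed or had an RPKM below 1: 34.5% had a host gene with an RPKM of at least 1, against 76.7% of the wider intronic peaks. RPKM are reads scaled to gene length and library size, and genes at 0 are not listed in the authors' file. A gene that is not listed need not be silent, and not all identifiers of that file were found in the annotation. Snhg1, for example, is not listed but had 1292 tags of exonic height. The narrow peaks lay a median 3453.5 nt from the nearest basic exon, and the wider ones 1036.5 nt.

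Intronic peaks followed the abundance of their host mRNA less closely than exonic peaks did. Hosts that were not listed or had an RPKM below 1 held 36.6% of intronic peaks (4226), against 2.99% of exonic peaks. Per length of intron, however, such genes held fewer peaks, 6.06 a megabase against 18.7 in genes with an RPKM of at least 1. Intronic peaks in hosts with an RPKM of at least 1 had a median width of 42 nt, and those in the other hosts 24 nt. The share of narrow peaks was 17.1% in the first and 56.2% in the second. Across the 3461 host genes with an RPKM of at least 1, summed intronic height and RPKM had a Spearman rho of 0.14, whereas summed exonic height and RPKM of the same genes had a rho of 0.64. These correlations are across genes of pooled libraries, which are not independent replicates. The genes were chosen for holding an intronic peak, which bounds intronic but not exonic height from below. Neither value was adjusted for intron length, and per length of intron the number of peaks was higher at higher RPKM, as given below.

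**Figure D2:**
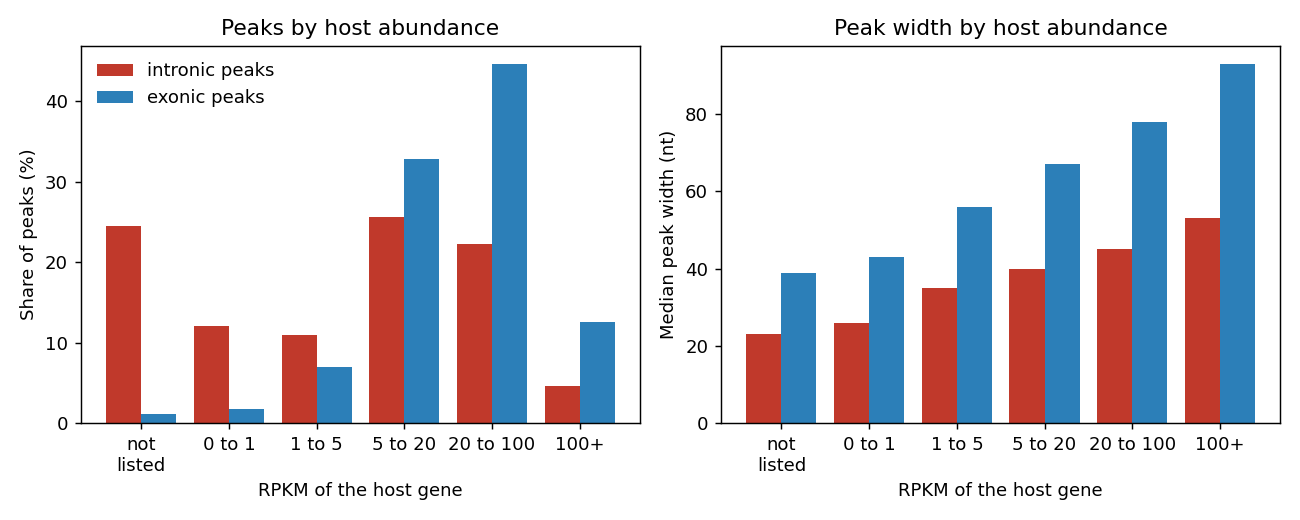
Intronic and exonic peaks by the RPKM of the host gene: share of peaks (left, %) and median peak width (right, nt). Of intronic peaks 24.5% had a host that was not listed in the RPKM file, against 1.19% of exonic peaks, and median width was higher at higher RPKM in both sets.

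The tallest intronic peaks, at most 1 a gene, were of several kinds. Smchd1, a gene for a chromatin protein of the inactive X chromosome, held a peak of 802 tags with 6 deletion sites at chr17:71458151-71458210. A second Smchd1 peak of 439 tags in the same intron lay over Gm4707-201, a nested transcript annotated as a translated processed pseudogene. The 802-tag peak lay in the same intron downstream of it.

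Among the others, Kansl2, a gene for a subunit of a histone acetyltransferase complex, held a peak of 730 tags in its intron 6, and Eya3, a gene for a transcriptional coactivator with phosphatase activity, one of 489 tags with 4 deletion sites. Both were wholly intronic, 522 nt and 3046 nt from an exon. The Rpl4 and Sik3 peaks are shown above. In Ubap2l, 279 of the 334 bases of a peak of 538 tags lay over exons, and its midpoint lay 3 nt past an annotated transcript end, so most of its bases are exonic. The remaining hosts, Mageb16 (732 tags), Cacna1e (515 tags) and Grm8 (514 tags), were not listed in the RPKM file. The Cacna1e peak, in a gene for a neuronal calcium channel, was 25 nt wide, 6929 nt from an exon and without a deletion site. Of the 170 intronic peaks of at least 74 tags, 45 were in hosts that were not listed or had an RPKM below 1 (26.5%, against 0.993% of exonic peaks of that height).

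Intronic peaks lay nearer to exons than the length of the introns would give. Their median distance to the nearest basic exon was 1462 nt (quartiles 409 and 5998.25 nt), 2555 nt to the nearest exon upstream and 4644.5 nt to the nearest downstream. Within 100 nt of an exon lay 849 peaks, 7.34% (6.88 to 7.83), while 2.61% of the intron length of the host genes lies that close. If each peak were placed evenly within its own intron stretch the share would be 6.11%. Within 500 nt the shares were 28.5% of peaks, 11.2% of host intron length and 23.2% of own stretches. Some bases of the peak lay over an exon in 242 cases. Without those, the share within 100 nt was 5.39%, and that of own stretches 5.57%. Leaving them out removes midpoints next to exons, while own stretches are still counted up to the exon. These values therefore cannot show whether peaks avoid or favour that distance. Within 500 nt the same peaks gave 27.0% and own stretches 22.5%. At the other end, 7478 peaks (64.7%) lay more than 500 nt from every basic exon and over no exon of the comprehensive annotation.

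Within introns the peaks lay toward the 5' end. In introns of at least 2 kb, 60.1% of 9880 peaks (59.1 to 61.0) were nearer the 5' splice site than the 3' splice site. The first 1000 nt of these introns held 1847 peaks and the last 1000 nt held 847. This asymmetry was found in hosts with an RPKM of at least 1, where the share was 66.9% (65.7 to 68.1), and in hosts below that or not listed the share was 49.6% (48.0 to 51.2). Exons of the comprehensive annotation accompanied it: among peaks over such an exon the share was 83.8%, and among peaks over none it was 56.8%. First introns (57.8%) and later introns (61.0%) both showed it. This comparison was added after the positions were seen.

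**Figure D3:**
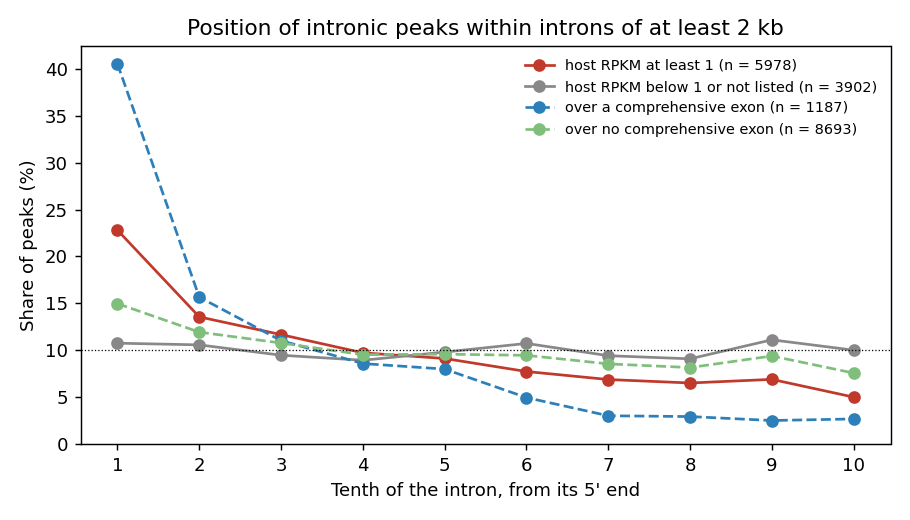
Share of intronic peaks (%) in each of 10 equal bins along the intron, from the 5' end, for introns of at least 2 kb, with the dotted line at an even spread. Peaks in hosts with an RPKM of at least 1 fell from 22.8% in the first bin to 5.02% in the last, and peaks in the other hosts were at 10.8% and 10.0%.

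Some intronic peaks lay just past the end of an annotated transcript. Of all intronic peaks 633 (5.48%) lay within 1000 nt downstream of a basic transcript end, where 0.753% of the intron length of the host genes lies. Among peaks of at least 74 tags the share was 22.4%. The end was one of the host gene itself in 236 of these cases. In the others it was the end of another gene's transcript. In Luc7l, a gene for a U1 snRNP-associated splicing factor, a peak of 350 tags lay 2 nt past the end of Gm16580, a processed pseudogene inside intron 5.

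The comprehensive annotation placed an exon under 1744 intronic peaks, 15.1% (14.4 to 15.8), although such exons cover 1.64% of the intron length of the host genes. The share was higher for taller peaks: 8.02% at up to 3 tags, 21.5% at 9 tags or more and 31.2% (24.3 to 38.7) at 74 tags or more. Among narrow peaks it was 2.81%. Transcripts annotated as retained introns lay under 1056 of the 1744 peaks, processed transcripts under 480, protein-coding transcripts under 214 and transcripts subject to nonsense-mediated decay under 121. The annotated part was a 3' UTR for 234 peaks and CDS for 32. For 1456 of the 1744 the exon was the last of a transcript, and 562 peaks lay within 100 nt before an annotated transcript end.

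Peaks over these exons differed from the other intronic peaks in several ways. Their median width was 53.5 nt against 32 nt, and their median height 6 tags against 5 tags. Of them 94.6% had a host with an RPKM of at least 1, compared with 57.9% of the other 9816 peaks. They held a deletion site in 2.47% of cases against 1.47%. In Cbx1, a gene for a heterochromatin protein, peaks of 179 and 79 tags, with lower ones beside them, lay in the 3' UTR of a transcript annotated for nonsense-mediated decay. In Rps20, a ribosomal protein gene, a peak of 148 tags lay over a retained intron and held a base deleted in 40 of 132 tags.

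The poly(A) signal was more frequent at these peaks than in the exons that hold them. AATAAA, searched on the sense strand within 20 nt of the midpoint, lay in 295 of the 1632 windows that could be read, 18.1% (16.2 to 20.0). All windows of that length along the same stretches gave 4.40%. At 3' UTR peaks the share was 9.22% and at CDS peaks 3.26%. AAAAAA, which can overlap AATAAA, lay in 7.66% of windows against 2.80% along the stretches. ATTAAA lay in 5.15% against 2.89%, and ATATAA in 4.84% against 1.78%. TTTTTT lay in 2.39% against 3.42%. Part of the AATAAA share lies at annotated ends: within 100 nt of one it was 31.8%, and among the 1160 windows farther from any end it was 12.5%, against 3.51% along their stretches. In windows centred on the most deleted base, AATAAA lay in 14 of 39, and in 8 of these a whole AATAAA lay within 6 nt of that base. The sequences of Pcif1, Pip5k1a, Ndufa7 and Abcb4 above are of this kind. A match says only that these letters are present.

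**Figure D4:**
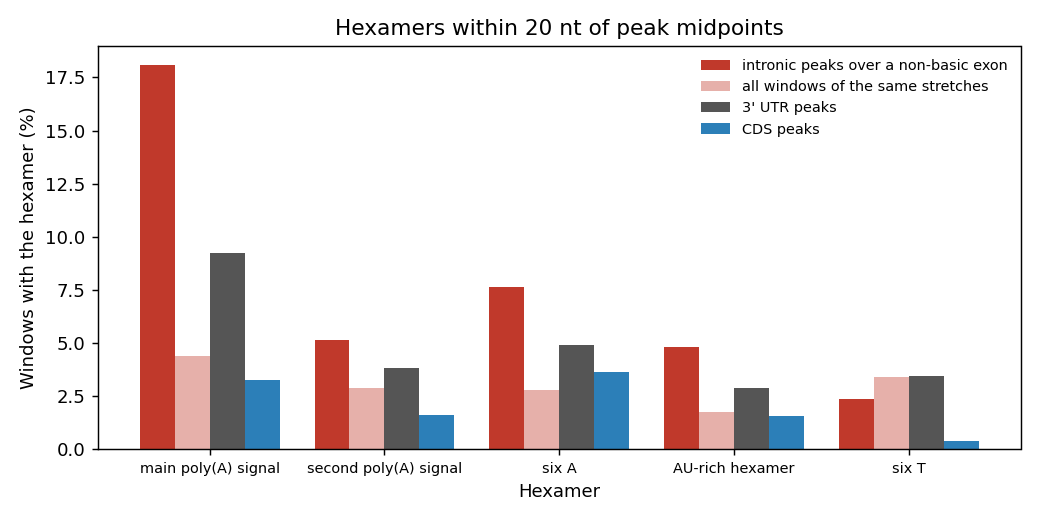
Share of 41-nt windows (%) that hold each hexamer: intronic peaks over a non-basic exon, all windows along the same stretches, 3' UTR peaks and CDS peaks. The main poly(A) signal is AATAAA, the second poly(A) signal is ATTAAA, the AU-rich hexamer is ATATAA, and the main signal reached 18.1% at intronic peaks and 4.40% along the stretches.

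Few intronic peaks held a deletion site, a base missing from some or all tags, as reverse transcriptase can leave at a cross-link. The number was 187, or 1.62% (1.396 to 1.865), against 9.99% of 3' UTR peaks and 2.01% of CDS peaks. The order of the classes depended on height. For peaks of 74 to 199 tags the shares were 22.8% in introns, 30.9% in 3' UTRs and 19.8% in CDS, and at 200 tags or more 61.8%, 72.0% and 54.6%. Among low peaks the intronic share was higher than those of 3' UTRs and CDS. At 2 to 3 tags it was 0.666% against 0.0959% in 3' UTRs and 0.119% in CDS, at 4 to 5 tags 0.632% against 0.130% and 0.0370%, at 6 to 8 tags 0.921% against 0.226% and 0.179%, and at 9 to 19 tags 1.39% against 0.818% and 0.593%. The first 3 of these intronic shares rest on 20, 22 and 19 peaks with a site. Peaks outside genes were above introns at 4 to 5 tags (1.02%), 6 to 8 tags (1.07%) and 9 to 19 tags (2.27%). Those shares rest on 2, 2 and 6 peaks, and at 2 to 3 tags the share outside genes was 0. Non-coding exons were above introns at 6 to 8 tags (1.64%) and below them at 2 to 3, 4 to 5 and 9 to 19 tags.

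The deletion sites in intronic peaks were often deleted in most of their tags. A site was counted anywhere within such a peak, also where the peak reaches over an exon. The 283 sites in intronic peaks were deleted in a median of 60.0% of tags (quartiles 20.2% and 100%), compared with 10.5% for the 8373 sites in 3' UTR peaks. Coverage was also lower, at a median of 24 tags against 154. At sites with a coverage of at least 100 tags the medians were 7.07% and 7.04%, and below that 80.0% and 21.7%. At least 50% of tags carried the deletion at 147 of the 283 sites in intronic peaks, 51.9%, against 5.53% in 3' UTR peaks. In hosts below an RPKM of 1 or not listed the median of 86 sites was 100%, and in the other hosts the median of 197 sites was 37.5%. The part of coverage and of host abundance in this difference was not tested. Whether each deletion marks a cross-link was not tested either.

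The 5 peaks with the most deletions at a single base fall on both sides. In Eya2, whose gene was not listed, a base was deleted in 163 of 176 tags of a peak 29 nt wide, and in Dlgap1, a gene for a synaptic scaffold protein that was also not listed, in 56 of 56 tags. In Smchd1 the most deleted base was missing from 85 of 802 tags, in Mageb16 from 83 of 483 and in Vti1a, a gene for a vesicle SNARE, from 83 of 298.

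The intronic peaks had 5932 host genes, 90.2% of them protein-coding, of which 3509 held 1 intronic peak and 76 held at least 10. Of the hosts 61.8% also had an exonic peak. Of the 10497 genes with introns and an RPKM of at least 1, 3461 held an intronic peak, 33.0% (32.1 to 33.9). That share followed intron length: it was 8.02% in genes with under 5 kb of intron and 83.6% in those with 100 kb or more (Spearman rho of peak number and intron length 0.50 across genes). By RPKM the share of genes was 30.3% at 1 to 5, 37.2% at 5 to 20, 32.9% at 20 to 100 and 24.3% at 100 and above. Per length of intron the number of peaks was higher at higher RPKM, with 15.0, 18.1, 20.6 and 26.7 peaks a megabase in the same bins. In genes with at least 20 kb of intron these values were 14.0, 17.2, 19.3 and 27.3, and in genes with less they were 25.5, 27.1, 28.2 and 25.2. Per length, short introns held more, with 42.4 peaks a megabase in genes with under 5 kb of intron and 14.5 in genes with 100 kb or more.

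The gene lists are set beside that background of 33.0% as counts, with no test of any list or of a difference between lists. Of 36 SR and hnRNP genes 17 had an intronic peak (47.2%), at 61.6 peaks a megabase of intron against 18.7 over all genes and 25.2 over genes with 5 to 20 kb of intron. By summed intronic height they were led by Hnrnpdl (154 tags in 1 peak), Hnrnpa2b1 (103 tags in 1 peak) and Hnrnpll (62 tags in 6 peaks). Of 29 genes known for retained or detained introns or poison exons, some of them splicing factor genes too, 17 had one (58.6%), at 71.4 a megabase. Luc7l held 527 tags of intronic height against 145 tags of exonic height, Luc7l2 146 against 1126 and Rbm39, a gene for a spliceosome-associated protein, 103 against 2436. All 5 Luc7l peaks lay within 495 nt, beginning 2 nt past the end of the pseudogene Gm16580, and none lay over a comprehensive exon. Both sets have shorter introns than the whole, with medians of 8224.5 nt and 12709 nt against 17692 nt.

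The lists of genes that act on mRNA 3' ends are given in the same way. Of 19 genes for cleavage and polyadenylation factors 8 had an intronic peak (42.1%), at 35.7 peaks a megabase against 18.7 over all genes. In Cstf3, which encodes a subunit of the cleavage stimulation factor, a peak of 113 tags lay over a retained-intron transcript 120 nt before its annotated end. Cstf3 had 122 tags of intronic and 125 tags of exonic height. Papola, the nuclear poly(A) polymerase gene, held 10 intronic peaks with 109 tags in all, and Fip1l1 1 peak of 22 tags. Of 46 genes for poly(A) tail binding, deadenylation and decay 17 had one (37.0%), near the 33.0% over all genes. Their median intron length was 26560 nt, and per length they held 16.1 peaks a megabase, below the 18.7 over all genes. They were led by Larp1 (222 tags in 4 peaks), Cnot7 (84 tags in 3 peaks) and Tnrc6b (53 tags in 3 peaks).

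Of 38 erythroid genes 15 had an intronic peak (39.5%), at 24.5 peaks a megabase. Gypc, the glycophorin C gene, held 1 intronic peak of 79 tags, Bcl11a, a repressor of fetal globin genes, 56 tags in 2 peaks, and Tfrc, the transferrin receptor gene, 1 peak of 53 tags. Of 82 genes for cytosolic ribosomal proteins 23 had one (28.0%), but their introns are short, with a median of 1940 nt a gene, and per length they held 139 peaks a megabase. Besides Rpl4 these were led by Rps20 (148 tags) and Rpl36a (117 tags, against 63 tags of exonic height). Of 11 non-coding snoRNA host genes 2 had one (18.2%), Zfas1 with 284 tags and Gas5 with 184 tags in 4 peaks. Their introns are shorter still, with a median of 691 nt a gene, and per length they held 426 peaks a megabase, resting on 5 peaks. Snhg1, which is not listed in the RPKM file, held 189 tags in 2 peaks. Of 39 chromatin regulator genes 28 had one (71.8%, the highest count share of the 8 lists), with a median intron length of 69259 nt and 22.3 peaks a megabase. The median number of intronic peaks a gene was 1 for the chromatin and retained-intron lists and 0 for the other lists, as over all genes. The leading chromatin genes were Setd5 (126 tags), Kmt2e (121 tags) and Bptf (78 tags).

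In 203 of the 3344 genes with an RPKM of at least 1 and peaks of both kinds, the introns held more summed height than the exons, while the median share in introns was 6.09%. Among genes with an RPKM of at least 10 high shares were found in Kansl2 (94.0%), Tmed7 (92.2%), Zfp865 (88.8%) and Cep95 (88.3%). In Kansl2 1 peak carried most of it, 730 of 820 tags. Tmed7, a gene for a cargo receptor of the secretory pathway, had 7 intronic peaks with a tallest of 320 tags. These began 8 nt past the end of a basic Tmed7 transcript, and all 7 lay over exons of comprehensive Tmed7 transcripts. Zfp865, a zinc finger gene, and Cep95, a gene for a centrosomal protein, had 5 intronic peaks each with tallest peaks of 60 and 43 tags.

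The genes with the most intronic peaks were partly those with the longest annotated introns. Gm20388 held 104 peaks in introns of 4251981 nt in all, Lrmda 67 in 1033014 nt, and Fgfr2, a growth factor receptor gene, 58 in 2879658 nt. These totals leave out bases over an exon of any basic transcript on the strand, so a single annotated intron with nested genes can be longer. Gm20388 and Fgfr2 are not listed in the RPKM file. In Gm20388, 8 neighbouring peaks held 516 of its 1459 tags of intronic height, with its tallest peak of 374 tags among them. They began 32 nt past the end of a transcript of another gene, Zfpm1. Vps54, a gene for a subunit of a vesicle tethering complex, held 38 peaks in only 77232 nt of intron, with a summed height of 493 tags against 267 tags in its exons. Snx12 (121719 nt) and Lingo2 (1239054 nt) held 22 each. The Lingo2 peaks had a median width of 23 nt and reached at most 7 tags in an unlisted gene, and the Snx12 peaks a median width of 60.5 nt and at most 44 tags at an RPKM of 28.0.

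Some peaks stood in dense runs. Joining intronic peaks with at most 1000 nt between neighbours gave 88 runs of at least 5 peaks, with 617 peaks, and 80 of these runs were in hosts with an RPKM of at least 1. Median width in these runs was 65 nt, against 30 nt for the 8955 peaks that stood alone. The longest run, in Vps54, had 33 peaks in 7327 nt, none of them over a comprehensive exon, and began 470 nt past an exon. Ube2k, a ubiquitin-conjugating enzyme gene, had 18 peaks in 6952 nt with a tallest of 195 tags. Of 16 peaks in a run in Cog5, a gene for a Golgi tethering complex subunit, 15 lay over exons of comprehensive Cog5 transcripts. Likewise 10 of 11 in Ppm1a, a protein phosphatase gene, lay over such exons. The run of 14 in Nufip2 began 1979 nt past the end of a basic Nufip2 transcript and lay over none.

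The run of 17 peaks counted in Fgfr2 began 410 nt past the end of a transcript of Ctbp2, a gene for a transcriptional corepressor, inside an annotated Fgfr2 intron of 2908817 nt. Fgfr2, the host by the rule, is not listed in the RPKM file.

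**Figure D5:**
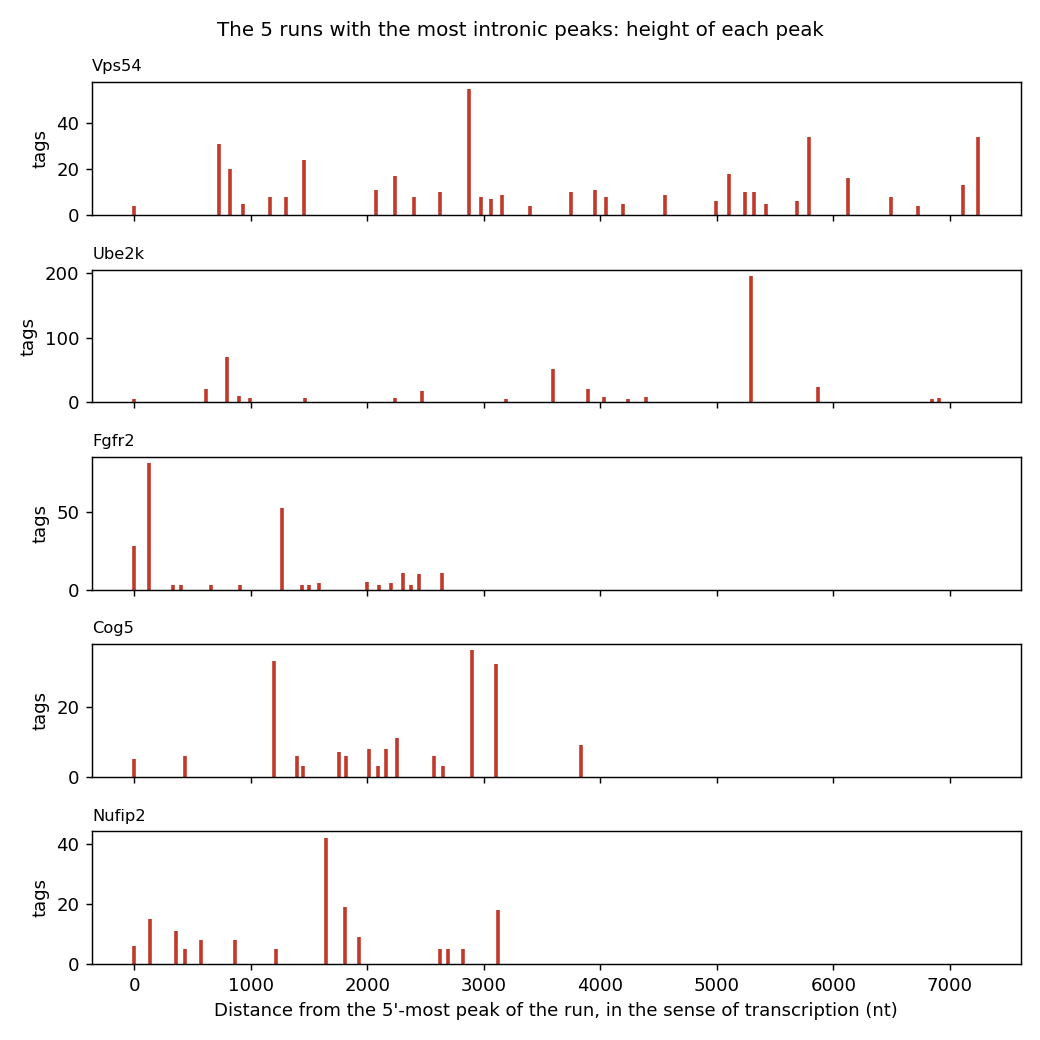
Height in tags of each intronic peak in the 5 runs with the most peaks, by distance from the 5'-most peak of the run in the sense of transcription (nt), with a separate height axis for each gene. Peaks stood at a median spacing of 165 nt in Vps54 and 303 nt in Ube2k, and a few tall peaks stood among many low ones.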

How the data were processed

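PABPC1 CLIP-seq (3 samples) and mRNA-seq (2 samples) of MEL cells were used as deposited. In the authors' peak list every peak has a whole-number score and its strand. The score, a signal deposited by the authors, was read here as height in tags, since at no intronic peak did the coverage of the most deleted base exceed the score. The authors' deletion list gives, per the name field of the file, the count of tags with a deletion and the coverage at each of 11907 bases. The authors' RPKM file gives 1 value a gene. Per the submitters' processing notes, the tools were HTSeq 0.6.0, TopHat2 2.0.12, Novoalign 3.02.02 and cutadapt 1.4.2, with build mm10 and no stated roles. The peak caller and its threshold are not given in the sources used here.

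Peaks were placed by midpoint and strand on GENCODE M21 basic transcripts, with exons before introns, and then on the comprehensive set (Python 3.11.15, pandas 2.3.3, scipy 1.17.1). Placement was tested on simulated peaks with known answers. Of 18349 RPKM identifiers 18059 were found in the annotation. Shares have exact Clopper-Pearson 95% intervals, which cover counting error only. They are set beside exact shares of intron length, of each peak's own intron stretch, or of all windows of the same stretches, with no random draws. Motif and sequence results use transcript sequence, since intron sequence of build mm10 was not used here. The planned comparison with windows along all host introns was therefore replaced by windows along the non-basic exons.

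The members and the 8 gene lists were chosen with earlier results of these data known. Named genes are the hosts of the 10 tallest peaks, the 5 with the most peaks (6 through a tie), the 5 tallest far from exons, the 5 tallest over comprehensive exons, the 5 with the most deletions at a base, 3 a list by summed intronic height, and the 5 with the highest intronic share at an RPKM of at least 10. 1 gene that these rules name is not reported here. Genes named beside sequences, runs and other examples were chosen after their values were seen. Alternatives changed the placement, height and width limits, distances and RPKM minimum.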

Additional observations from a re-analysis of the deposited data

How the results depend on the processing

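No paired analysis was possible because each list is pooled over replicates, so neither a replicate block nor leaving out a replicate could be run. Counting only peaks far from exons gives no value for the share within 100 nt of an exon, and the planned median height of peaks above a height limit, which the limit itself sets, was not run. Of 57 alternatives, 22 stayed within the interval of the main value. The share of peaks in introns (12.8%) was 12.5% with no base over an exon, 10.9% on the comprehensive annotation, 6.54% for peaks of at least 9 tags, 1.86% for at least 74 tags and 3.56% weighted by height. With settings added after the data were seen it was 13.5% with gene spans outside basic transcripts, 12.0% without introns above 200 kb and 9.27% for peaks wider than 25 nt. For peaks of at least 9 and 74 tags, the share within 100 nt of an exon was 10.0% and 15.3%, over a comprehensive exon 21.5% and 31.2%, with a deletion site 4.19% and 30.6%, of genes with an intronic peak 14.2% and 1.10%, and nearer the 5' end of the intron 64.3% and 62.8%. With no base over an exon the share within 100 nt was 5.39%, and within 50 nt or 500 nt it was 3.70% and 28.5% of all. More than 100 nt from exons, 13.5% lay over comprehensive exons and 30.6% of genes had a peak. Without introns above 200 kb, 16.0% lay over comprehensive exons. For peaks wider than 25 nt the median height was 6 tags, 8.96% lay within 100 nt of an exon, 20.7% over comprehensive exons, 28.6% of genes had a peak and 64.6% lay nearer the 5' end. In hosts with an RPKM of at least 1 the shares were 9.20% within 100 nt, 22.5% over comprehensive exons and 66.9% nearer the 5' end. AATAAA lay within 50 nt at 23.5% and AAAAAA at 14.6%, and AATAAA at 12.5% more than 100 nt before any annotated end. The cause of these shifts was not tested. Peaks of 2 or 3 tags, 26.0% of the members, limit what can be said of single low peaks.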

Other observations

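The nearest exon belonged to a gene other than the host for 1127 peaks (9.75%), and to a processed pseudogene for 332 (2.87%). A snoRNA gene was the nearest exon and within 100 nt for 17 peaks, among them that of Zfas1. An exon of the other strand lay under 124 peaks (1.07%), and under 0.710% of the intron length of the host genes.

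A few narrow peaks were tall. Of the intronic peaks up to 25 nt wide, 17 reached 74 tags, none of them held a deletion site and none lay over a comprehensive exon, while 52 of the 153 wider peaks of that height held a deletion site. Besides Cacna1e these included Carnmt1 (353 tags, 20 nt wide, host RPKM 1.07), Dennd2c (203 tags, 24 nt), Dpyd (148 tags, 24 nt, host not listed) and Exoc4 (140 tags, 22 nt). These peaks were chosen after their values were seen.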
